A study of Mus musculus with 120 samples.

Results

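The libraries described here are those of mouse bone-marrow-derived macrophages given a high dose of halofuginone, 625, 2500 or 10000 nM, together with 2 mM proline and taken at time 0 (T0). They were chosen by their labels for dose, proline and time, which gave 6 libraries, 2 at each dose, of 120 in all, and they were set against the 12 control libraries of the same time. Proline was labelled in every one of these treated libraries, so the comparison is of halofuginone together with its competitor against control.

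Halofuginone is a derivative of the plant alkaloid febrifugine. It occupies the proline site of prolyl-tRNA synthetase, part of the bifunctional enzyme that Eprs encodes, and proline competes for the same site. Where halofuginone prevails, uncharged tRNA for proline accumulates. Uncharged tRNA activates the kinase GCN2, which phosphorylates eIF2, slows translation in general and favours translation of the transcription factor ATF4, the start of the integrated stress response. Macrophages are also poised to transcribe chemokine, cytokine and immediate early genes within minutes through NF-kB and MAP kinase signalling, and the mRNAs of many of these genes are short-lived.

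All groups were cells from wild-type male C57BL/6 mice aged 12 weeks, differentiated in medium with serum and CMG, transduced with a virus that reports transcription factor activity, and replated in wells on day 9. The series' design has small molecules given 30 minutes ahead of lipopolysaccharide (LPS, a bacterial activator of Toll-like receptor 4), while the treatment protocol has a 4 hour dose curve with LPS or without. No label states how long T0 cells had been exposed, whether they had LPS, or whether controls had proline, so the effect of proline by itself on the comparison with controls cannot be told apart from that of halofuginone. The times are labels without a unit. The labels do not say that replicate libraries came from separate cultures, and p-values measure only the spread between these libraries.

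The macrophage identity in the labels was checked against marker genes. Csf1r, which encodes the receptor for the macrophage growth factor CSF-1, was read at 717 and 1446 CPM at 625 nM, 946 and 1096 at 2500 nM and 1114 and 773 at 10000 nM, against 782 to 1166 CPM (median 994) in controls. The groups overlapped (log2 fold change 0.11, SE 0.16, adjusted p = 0.616). Of 16 listed macrophage markers 10 were tested, none rose and 4 fell (Tyrobp, Cd14, Ctss and C1qb), with a median log2 change of -0.28. Over all genes tested 24.4% were lower. The calls of Cd14 and C1qb were lost without single libraries, and without the 10000 nM libraries Cd14 was at 0.04. The summed level of the list was 3922 ± 399 (range 3326 to 4493) CPM against 5707 ± 319 (range 5201 to 6509) in controls. Lyz2, usually an abundant macrophage mRNA, had 0 counts in the 6 libraries and 5 in the 12 controls. No listed marker of fibroblasts, mast cells, erythroid cells, dendritic cells, B cells or T and NK cells passed the filter on low counts. The neutrophil markers S100a8 and S100a9 did, and both were lower with halofuginone. The summed level of the whole neutrophil list was 122 ± 81 (range 0 to 229) CPM against 405 ± 67.6 (range 286 to 508) in controls. Elane, a granule gene of early neutrophil precursors, had no count in either group, and Mpo had 1 count in the 12 controls and 0 in the 6 libraries. Granule genes of later stages did have counts, with 29 of Ngp in the controls against 2 in the 6 libraries, 8 against 1 of Mmp8, 4 against 0 of Camp and 3 against 1 of Ltf, as did the receptor genes Csf3r (26 against 6) and Cxcr2 (16 against 10). None of these passed the filter on low counts. The part of neutrophil RNA in the results below was not tested.

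These are shallow 3′ end counts. The 6 libraries held 40391 to 61377 counts and the controls 40579 to 75083, of which 16895 to 26812 and 20467 to 37760 lay outside Rn45s, the ribosomal precursor RNA. Rn45s took 59.9% ± 2.72 (SD, n = 6) of counts with halofuginone and proline against 47.7% ± 3.21 (n = 12) in controls, and no treated library overlapped the controls (exact permutation test, two-sided, p = 5.39e-05, the smallest possible here; adjusted p = 8.08e-05 over 3 measures). After thinning each library to 16895 counts outside Rn45s, 4139 ± 87.4 genes had a count against 4630 ± 82.8, again without overlap (exact permutation test, adjusted p = 8.08e-05). The 10 most counted genes outside Rn45s took 14.0% ± 0.779 against 11.5% ± 1.00 (exact permutation test, adjusted p = 0.000377). Levels given below are CPM, counts scaled to a common library size, and compare a gene with itself, not genes with each other. Intervals cover counting error and spread between libraries only.

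**Figure D1:**
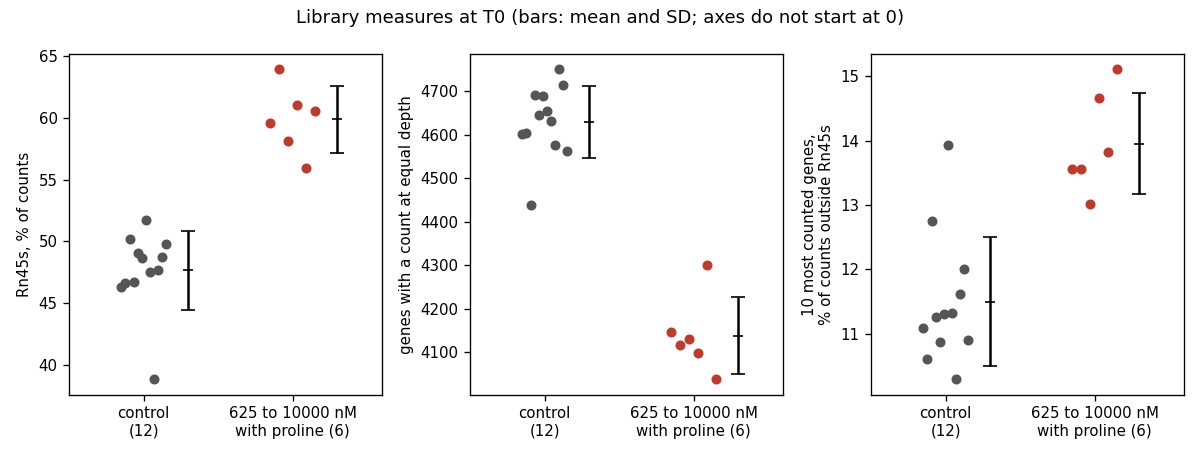
Share of Rn45s in all counts, genes with a count after thinning to equal depth, and share of the 10 most counted genes outside Rn45s, for 12 control and 6 high-dose libraries with proline at T0, each point 1 library, bars showing mean and SD. The 2 groups do not overlap in the first and second panels, where the means are 59.9% against 47.7% and 4139 against 4630 genes.

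High-dose halofuginone with proline raised most tested mRNAs of inflammatory mediators and immediate early genes and lowered most of those of ribosomal proteins and nuclear-encoded respiratory chain subunits. The tested genes of lysosomal hydrolases and membrane proteins fell in 17 of 29 cases and those of S100 proteins, galectins and annexins in 8 of 13, while among 29 actin cytoskeleton genes 13 fell and 3 rose. Of 1130 genes tested, 214 were higher (18.9%) and 276 lower (24.4%), 43.4% in all, at an adjusted p under 0.05 (edgeR's quasi-likelihood test, Benjamini-Hochberg, two-sided), and the median over all genes was -0.07 log2. With scaling factors taken from all genes before the filter on low counts, 155 were higher and 339 lower, the median over all genes moved to -0.30, and without the filter 158 genes were higher and 420 lower. A list of genes below is therefore to be read against the median over all genes, and its counts against the shares of 18.9% and 24.4%. With every library thinned to the same depth, 508 genes could be tested, of which 126 were higher and 139 lower. Genes nearly absent from controls could enter the test only through the treated libraries, so neither counts of risers nor medians of such lists measure how their members behave as a whole.

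The steepest riser was Cxcl2, which encodes a chemokine that attracts neutrophils. It was read at 3309 and 3298 CPM at 625 nM, 3412 and 2604 at 2500 nM and 2304 and 2238 at 10000 nM, while controls held 0 to 98.6 CPM (median 23). Each treated library exceeded every control by more than an order of magnitude (log2 fold change 6.53, SE 0.24, adjusted p = 1.98e-39). Its neighbours Cxcl1 and Cxcl3, chemokines of the same family, rose by 5.09 (SE 0.65) and 6.21 (SE 0.58) on the log2 scale from control medians of 0. Reads of the 3 related chemokine genes may be shared, since the counting of reads that match several genes is not given in the sources used here.

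The macrophage inflammatory chemokines moved likewise. Ccl4, which draws monocytes and lymphocytes, stood at 294 and 355 CPM at 625 nM, 573 and 713 at 2500 nM and 653 and 613 at 10000 nM, with 0 to 63.6 CPM (median 20.9) in controls. It thus lay above all controls at each dose (log2 fold change 4.3, SE 0.33, adjusted p = 1e-19). Ccl3 rose by 3.84 (SE 0.57), and Ccl2, the main monocyte chemokine, by 3.31 (SE 1.08). Ccl2 was uneven across doses, with 239 and 178 CPM at 625 nM, 201 and 82.2 at 2500 nM and 19.2 and 0 at 10000 nM. Its controls held 0 to 17.1 CPM (median 0), which the 10000 nM libraries did not clearly exceed. The call of Ccl2 was lost without the 10000 nM replicate 1 library, where the change was 2.45. That fit left 1 library at 10000 nM, with Ccl2 at 0 CPM, in an average over the log2 levels of the doses.

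The cytokines Il1b and Tnf were among the risers. Il1b, which encodes interleukin-1 beta, had 772 and 457 CPM at 625 nM, 889 and 356 at 2500 nM and 346 and 293 at 10000 nM. Controls had 0 to 65 CPM (median 15.1), and no control reached the lowest treated library (log2 fold change 4.71, SE 0.40, adjusted p = 1.21e-17). Tnf, encoding tumour necrosis factor, had 313 and 254 CPM at 625 nM, 373 and 521 at 2500 nM and 230.4 and 159.8 at 10000 nM against 0 to 56.4 CPM (median 0) (log2 fold change 4.55, SE 0.49, adjusted p = 7.51e-13), again without overlap. Other cytokine genes were too low to test. Il6 and Ifnb1 had 0 counts in both groups, and Cxcl10, an interferon-induced chemokine, had 11 counts in all 6 treated libraries together and 9 in the 12 controls (means 45.4 and 11.7 CPM). Some had more counts in the 6 libraries than in the 12 controls, as Osm (23 against 1), Tnfsf9 (17 against 0), Il1rn (22 against 7) and Ccl7 (16 against 0). Others had fewer, as Ccl5 (5 against 14) and Csf2 (0 against 2), and Il12b had 1 in each group. Of 55 listed interferon-stimulated genes only 4 were tested. None rose and 1, Slfn5, fell (-1.07, SE 0.32), a share close to the 24.4% lower over all genes. The median of the 4 was -0.58. Without the 2500 nM replicate 2 library Slfn5 was no longer called.

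In the whole list of NF-kB and inflammatory genes, 17 of 21 tested members rose and none fell, with a median of 2.92 log2, beside 18.9% higher and a median of -0.07 over all genes. The 4 that did not pass were Cxcl16, Birc3, Nfkb1 and Tnip1, with log2 changes of 0.33, 0.53, 0.92 and 1.01. Genes that restrain inflammation were among the risers. Nfkbia, encoding the inhibitor IkB-alpha that holds NF-kB in the cytoplasm, had 1581 and 1319 CPM at 625 nM, 2437 and 2110 at 2500 nM and 1248 and 1119 at 10000 nM. Its controls ran at 143 to 349 CPM (median 199), far below each treated library (log2 fold change 2.92, SE 0.19, adjusted p = 6.57e-24). Tnfaip3, whose product A20 is an enzyme that edits ubiquitin chains and dampens NF-kB signalling, rose by 3.56 (SE 0.43). Zfp36, encoding tristetraprolin, which speeds the decay of cytokine mRNAs, rose by 2.85 (SE 0.30). Cd83, a surface protein of activated myeloid cells, rose by 2.90 (SE 0.26).

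The promoters of 4 risers are shown because each holds at least 1 match to a short motif searched for near the start. Windows run from 250 bases ahead of the transcription start to 50 bases past it and come from RefSeq on GRCm38.p6, 5′ to 3′ on the gene's strand. Capitals mark a match to the kappaB motif (GGG, any 2 bases, TTTCC) or to TGACGTCA, the cyclic AMP response element, on either strand. Cxcl2 lies at chr5:90903649-90903948 on the + strand, Cxcl1 at chr5:90890995-90891294 on the + strand, Nfkbia at chr12:55492598-55492897 on the - strand and Dusp1 at chr17:26508423-26508722 on the - strand.
Cxcl2: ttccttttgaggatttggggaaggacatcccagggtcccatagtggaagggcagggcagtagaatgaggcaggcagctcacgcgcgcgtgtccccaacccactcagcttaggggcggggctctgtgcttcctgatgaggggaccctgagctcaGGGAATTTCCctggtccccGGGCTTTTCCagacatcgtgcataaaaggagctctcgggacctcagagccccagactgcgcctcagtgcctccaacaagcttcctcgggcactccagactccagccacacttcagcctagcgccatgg
Cxcl1: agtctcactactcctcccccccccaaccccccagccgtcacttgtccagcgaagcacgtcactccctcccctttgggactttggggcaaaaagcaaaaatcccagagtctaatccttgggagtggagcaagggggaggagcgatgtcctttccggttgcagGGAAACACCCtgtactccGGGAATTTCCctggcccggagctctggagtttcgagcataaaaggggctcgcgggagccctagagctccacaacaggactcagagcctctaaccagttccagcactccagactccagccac
Nfkbia: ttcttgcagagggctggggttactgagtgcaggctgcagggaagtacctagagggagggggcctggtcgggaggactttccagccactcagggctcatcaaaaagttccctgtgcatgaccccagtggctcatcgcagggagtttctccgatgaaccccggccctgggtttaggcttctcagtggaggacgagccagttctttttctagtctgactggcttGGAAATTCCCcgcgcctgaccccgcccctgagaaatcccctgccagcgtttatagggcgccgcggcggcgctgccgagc
Dusp1: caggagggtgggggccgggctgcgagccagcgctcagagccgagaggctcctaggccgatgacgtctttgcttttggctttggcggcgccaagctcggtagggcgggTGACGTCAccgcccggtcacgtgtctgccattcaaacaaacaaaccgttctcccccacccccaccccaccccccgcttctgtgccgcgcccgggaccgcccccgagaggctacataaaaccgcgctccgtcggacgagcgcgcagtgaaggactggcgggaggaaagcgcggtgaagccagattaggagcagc

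Both Cxcl1 and Cxcl2 hold 2 matches to the kappaB motif, and Cxcl3 and Nfkbia hold 1. Of the 214 genes called higher, 155 had a window, and 12 of these (7.74%) held the kappaB motif. It was held by 3 of 200 called lower (1.5%), 26 of 854 tested (3.04%) and 512 of all 27025 genes with a window (1.89%). The 12 were Akap13, Csf1, Cxcl1, Cxcl2, Cxcl3, Lmna, Mdfic, Nfkbia, Rasgef1b, Tank, Tnfaip3 and Vim. TGACGTCA was found in 7 of the 155 (4.52%), among them Btg2, Ccnl1, Dusp1 and Ppp1r15a. It was in 8 of 200 called lower (4%), 30 of 854 tested (3.51%) and 549 of all genes with a window (2.03%). The AP-1 motif TGANTCA was found in 10 of the 155 (6.45%), 15 of the 200 (7.5%), 59 of the 854 (6.91%) and 2425 of all genes with a window (8.97%). The serum response element searched for was in none of the tested genes' windows and in 21 of all 32851 windows (0.0639%). No motif overlapped another in the printed windows. Windows of Il1b, Tnf, Atf3, Ifrd1 and Junb held none of the 4. In all 85 of 110 named genes had a window. A match is a run of letters and was not tested against the change of the gene.

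Immediate early genes are switched on within minutes of a stimulus without new protein synthesis. Of 40 listed 23 were tested, of which 20 rose and none fell, beside 18.9% higher over all genes. The median was 2.95 log2 over those tested. The 3 that did not pass were Zfp36l2 (-0.61), Zfp36l1 (0.08) and Klf10 (1.03). Ifrd1, a transcriptional coregulator whose mRNA is known to respond to eIF2 phosphorylation, had 680.2 and 787 CPM at 625 nM, 1147 and 932 at 2500 nM and 653 and 1119 at 10000 nM. All controls stood lower, at 0 to 63.6 CPM (median 27.8) (log2 fold change 4.84, SE 0.29, adjusted p = 7.18e-26). Junb, a subunit of the AP-1 transcription factor, had 1250 and 1319 CPM at 625 nM, 1864 and 1288 at 2500 nM and 902 and 826 at 10000 nM, with 69 to 287 CPM (median 138) in controls (log2 fold change 2.90, SE 0.20, adjusted p = 3.85e-22). The 2 groups were again apart. Its partners Fos and Jun rose by 2.47 (SE 0.35) and 2.51 (SE 0.25).

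Several risers of this list encode brakes on growth or signalling. Dusp1, a phosphatase that switches off MAP kinases, had 404 and 457 CPM at 625 nM, 860.1 and 521 at 2500 nM and 480.0 and 293 at 10000 nM, against 0 to 76.2 CPM (median 15.5) in controls (log2 fold change 4.34, SE 0.38, adjusted p = 7.42e-17). Gadd45b, a growth arrest and stress gene, rose by 4.34 (SE 0.35), Btg2, an antiproliferative factor that promotes mRNA deadenylation, by 3.42 (SE 0.37), and Ier3 by 4.6 (SE 0.50). Egr1, a zinc finger transcription factor, was uneven over doses. It had 18.4 and 127 CPM at 625 nM, 631 and 439 at 2500 nM and 422 and 293 at 10000 nM, and controls had 0 to 53.9 CPM (median 0). The 625 nM replicate 1 library thus lay within the control range, while the 2500 and 10000 nM libraries were far above it (log2 fold change 4.4, SE 0.64, adjusted p = 2.12e-08). Klf6, another zinc finger factor, rose by 2.63 (SE 0.18), and its value in the 2500 nM replicate 1 library stood apart at 2236 CPM.

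Outside these lists, Kdm6b, a demethylase of histone H3 lysine 27, rose most among 23 tested chromatin and transcription regulators. It had 478 and 431 CPM at 625 nM, 1089 and 795 at 2500 nM and 634 and 426 at 10000 nM, with 0 to 57.1 CPM (median 18.5) in controls (log2 fold change 4.83, SE 0.36, adjusted p = 3.44e-20). In the list as a whole 7 rose and none fell, beside 18.9% higher over all genes, with a median of 0.58. Jmjd1c, Ash1l and Chd2 followed Kdm6b at 1.6, 1.6 and 1.51. Id3 and Id2, inhibitors of basic helix-loop-helix factors and known targets of TGF-beta and BMP signals, rose by 2.60 (SE 0.21) and 2.09 (SE 0.18). Id3 had 1177 and 888 CPM at 625 nM, 1634 and 1370 at 2500 nM and 1133 and 852 at 10000 nM, against 46 to 310.0 CPM (median 208). They were among 5 of 7 tested members of that list to rise (median 1.2), beside 18.9% over all genes. Rgs1, a regulator of G-protein signalling, rose by 3.55 (SE 0.35), the kinase gene Pim1 by 3.48 (SE 0.35) and Ccnl1, a cyclin of the splicing machinery, by 3.18 (SE 0.24). Mdm2, the ubiquitin ligase of p53, rose by 1.95 (SE 0.26), whereas Cdkn1a, the p53-induced cell cycle inhibitor, was at 0.17 (adjusted p = 0.752). The small nuclear and cytoplasmic RNAs Rnu6 and Rn4.5s rose by 3.67 (SE 0.24) and 3.97 (SE 0.32), and Rn45s by 0.77 (SE 0.10). Removing the structural RNAs ahead of scaling gave 215 genes higher and 279 lower.

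**Figure D2:**
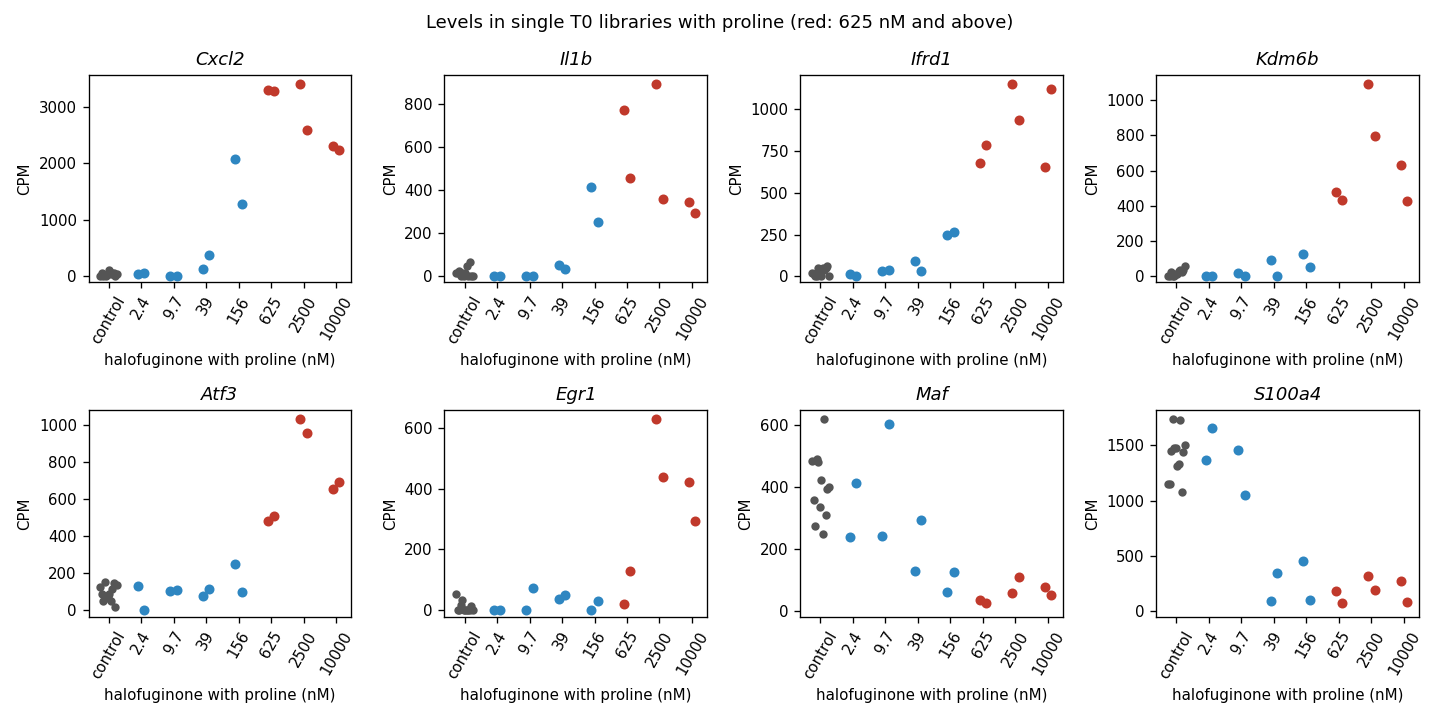
CPM of 8 genes in single T0 libraries, grey for the 12 controls and coloured for halofuginone with proline by dose (2 libraries a dose, red from 625 nM). Cxcl2, Il1b, Ifrd1, Kdm6b and Atf3 lie above all controls in each of the 6 red libraries, Egr1 in 5 of them, while Maf and S100a4 lie below all controls in each.

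The integrated stress response was read from ATF4 and its targets. Atf4 itself, the transcription factor of the pathway, had 147 and 279 CPM at 625 nM, 459 and 411 at 2500 nM and 134 and 213 at 10000 nM. The control range was 0 to 135 CPM (median 54), so that the lowest treated library fell just inside it and the others above (log2 fold change 1.97, SE 0.36, adjusted p = 5.77e-06). Ddit3, encoding CHOP, which promotes cell death under lasting stress, had 147 and 203 CPM at 625 nM, 143 and 82.2 at 2500 nM and 96 and 53.3 at 10000 nM, against 0 to 101 CPM (median 18). The groups overlapped in part (log2 fold change 2.20, SE 0.54, adjusted p = 0.000558). Atf3, a repressor of the same family, had 478 and 507 CPM at 625 nM, 1032 and 959 at 2500 nM and 653 and 693 at 10000 nM, against 12.7 to 152 CPM (median 85.1) in controls, with no overlap (log2 fold change 2.98, SE 0.26, adjusted p = 7.42e-17).

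Further members rose. Gdf15, a stress cytokine of the TGF-beta family, was at 0 in 11 of 12 controls and had 147 and 76.1 CPM at 625 nM, 115 and 164 at 2500 nM and 154 and 107 at 10000 nM (log2 fold change 4.73, SE 0.68, adjusted p = 1.78e-08), a fold that rests on very few control counts. Sqstm1, the autophagy receptor p62, rose by 1.51 (SE 0.22), and Ppp1r15a, encoding the phosphatase subunit GADD34 that reverses eIF2 phosphorylation, by 1.87 (SE 0.45). The amino acid transporters Slc38a1, Slc38a2 and Slc3a2 rose by 1.58, 1.6 and 0.97. Slc3a2 lost its call without the 10000 nM replicate 1, the 2500 nM replicate 1 or the 625 nM replicate 2 library, and Slc38a2 without the 10000 nM replicate 2 library. Of 40 members of the ATF4 list 11 were tested. Of these 10 rose and none fell, beside 18.9% higher over all genes, and the median was 1.82. Members nearly absent from controls could enter the test only through treated libraries, so this count does not measure the whole list. The exception was Cebpg at -1.17. The lists share members, among them Atf3 with the immediate early genes and Cebpb with the macrophage transcription factors. Without the 10000 nM replicate 2 library Cebpg was at -2.34. That fit left 1 library at 10000 nM, with Cebpg at 0 CPM, in an average over the log2 levels of the doses. Other classical targets were too low to test. Asns, asparagine synthetase, had 8 counts in the 6 libraries and 14 in the 12 controls, Trib3 had 1 and 4, and Chac1 had none. Some further low-count genes of stress and amino acid metabolism had fewer counts in the 6 libraries, as Eif4ebp1 (0 against 27), Pycr1 (0 against 10) and Phgdh (0 against 6). Some had more, as Sesn2 (5 against 3) and Ddit4 (3 against 0).

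Transcripts of the tRNA synthetases, another known ATF4-regulated set, were not called. None of 4 tested rose or fell, with a median of 0.49. Eprs, which encodes the enzyme that halofuginone binds, had 165 and 0 CPM at 625 nM, 201 and 247 at 2500 nM and 192 and 213 at 10000 nM, against 34.2 to 152 CPM (median 91.5). It was above all controls in 5 of 6 libraries and at 0 in the remaining one (log2 fold change 0.77, SE 0.39, adjusted p = 0.101). Without that library, 625 nM replicate 2, the change was 1.01 with adjusted p = 0.0360. Aars, alanyl-tRNA synthetase, had 0 and 25.4 CPM at 625 nM, 86 and 27.4 at 2500 nM and 19.2 and 26.6 at 10000 nM and 0 to 127 CPM (median 35.9) in controls, so the groups overlapped (log2 fold change -0.68, SE 0.74, adjusted p = 0.489).

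Set along the dose series, the summed tRNA synthetase level had its highest values below the doses described here. With proline it was 642 and 688 at 2.4 nM, 762 and 693 at 9.7 nM, within the control range of 552 to 1018 CPM. It was 1247 and 1626 CPM at 39 nM and 1560 and 1271 at 156 nM, above all controls. It was then 827 and 457 CPM at 625 nM, 659 and 1206 at 2500 nM and 845 and 639 at 10000 nM. Of these 6 values 4 lay within the control range, 1 below and 1 above. Aars alone followed the same course, with 257 and 164 CPM at 39 nM, 249.5 and 126 at 156 nM and at most 86 from 625 nM on. Without proline the highest sums stood at 9.7 nM, with 1466 and 1525 CPM. These sums are descriptions without a test, with 2 libraries a dose.

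The ATF4 list behaved otherwise. Its sum with proline was 1010 and 964 CPM at 2.4 nM, inside the control range of 899.6 to 1404. It was already above all controls at 9.7 nM, with 2008 and 1580 CPM, and stood at 2824 and 3368 at 39 nM and 3660 and 2849 at 156 nM. It was 3144 and 4034 CPM at 625 nM, 4387 and 3728 at 2500 nM and 2765 and 2664 at 10000 nM, all above the controls. The immediate early list stood at 5282 and 4091 CPM at 156 nM and at 8420 to 16658 CPM in the 6 high-dose libraries, against 1127 to 1875 in controls. The inflammatory list stood at 3503 and 4107 at 39 nM, 9337 and 6940 at 156 nM and 8924 to 14307 CPM at the high doses, against 1729 to 2457. The highest sum of both lists came at 2500 nM, in replicate 1.

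**Figure D3:**
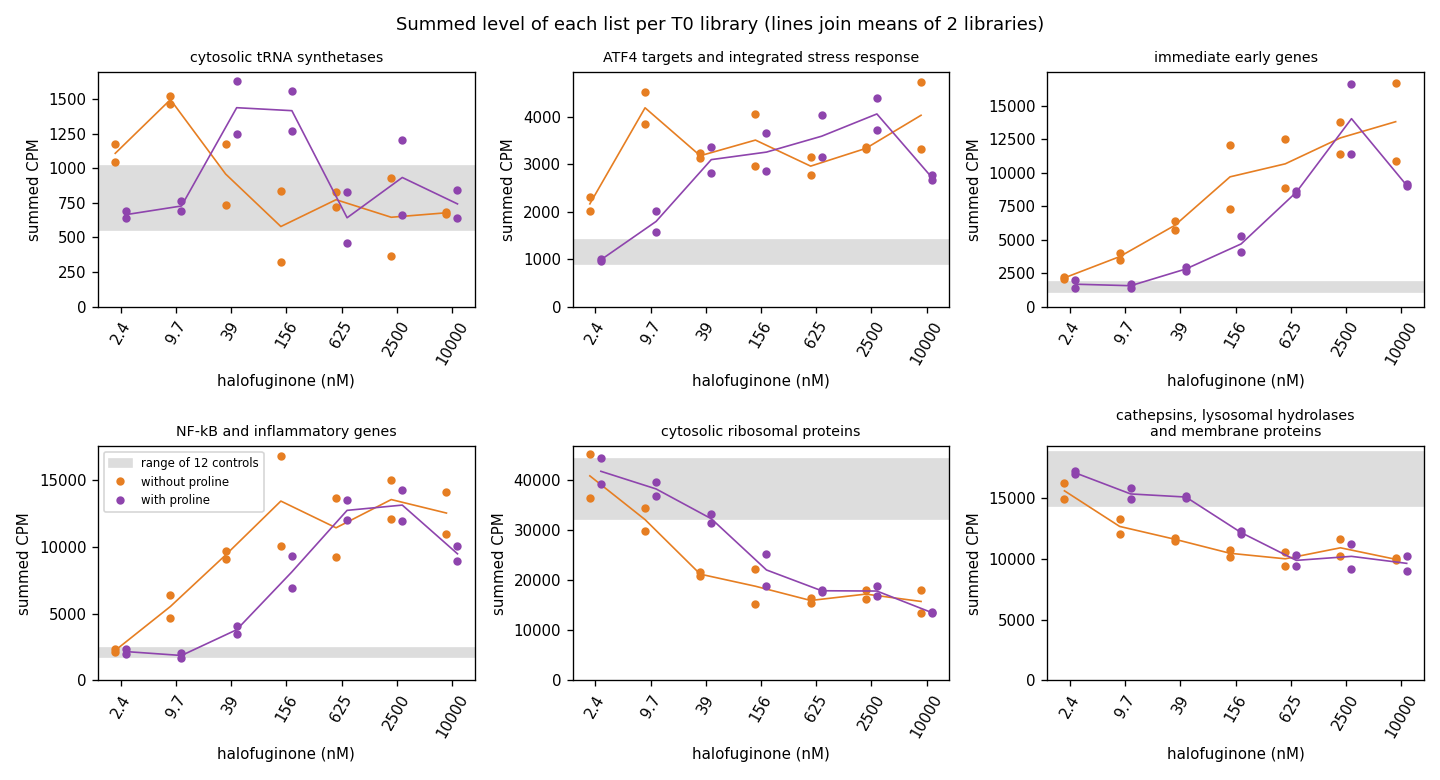
Summed CPM of 6 gene lists in single T0 libraries by halofuginone dose, without proline in orange and with proline in purple, lines joining means of 2 libraries and the grey band giving the range of the 12 controls. The tRNA synthetase sum with proline exceeds all controls at 39 and 156 nM, and from 625 nM on it does so in 1 of 6 libraries, while the ATF4, immediate early and inflammatory sums stay above the band at the high doses and the ribosomal protein and lysosomal sums lie below it.

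Ribosomal protein mRNAs fell together. Of 78 tested members of the list 72 fell and none rose, with a median of -1.28, beside 24.4% lower over all genes. Among the 6 that did not pass were Rps27a, Rpl21, Rpl3, Rpl5 and Rpl4, the last 2 at 0.27 and 0.35. The summed level was 13384 to 18808 CPM in the 6 libraries and 32105 to 44136 in the 12 controls. Rpl37a, a protein of the large subunit, had 91.9 and 50.7 CPM at 625 nM, 115 and 137 at 2500 nM and 76.8 and 79.9 at 10000 nM, against 457 to 920.3 CPM (median 652) (log2 fold change -2.76, SE 0.29, adjusted p = 1.96e-13). Rps29, a protein of the small subunit, had 331 and 584 CPM at 625 nM, 315 and 274 at 2500 nM and 249.6 and 293 at 10000 nM, against 923 to 1449 CPM (median 1143) (log2 fold change -1.74, SE 0.21, adjusted p = 6.27e-11). Both genes were below every control in each treated library. Counts of ribosomal proteins can be shared with processed pseudogenes, and how such reads were handled is not given in the sources used here. In bulk libraries, fewer cells of a type and less RNA per cell cannot be told apart, here or in the results that follow.

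Other mRNAs of the translation machinery were mixed. Of the translation factors and further mRNAs with a 5′ terminal oligopyrimidine tract, 15 were tested. Among them 7 fell and 2 rose, beside 24.4% and 18.9% over all genes, with a median of -0.23. Of the risers, Eif4b was no longer called without any of the 10000 nM replicate 1, 2500 nM replicate 1, 2500 nM replicate 2 or 625 nM replicate 2 libraries. Eef1b2, an exchange factor of elongation factor 1, fell by 1.49 on the log2 scale (SE 0.31) and Gnb2l1, encoding the ribosomal scaffold RACK1, by 1.45 (SE 0.29). Eef1a1, the abundant elongation factor itself, was at -0.23 (adjusted p = 0.234). Tpt1 had 4486 and 4795 CPM at 625 nM, 5419 and 8661 at 2500 nM and 5165 and 6526 at 10000 nM, against 2762 to 5383 CPM (median 3739) in controls. It was thus higher (log2 fold change 0.65, SE 0.14, adjusted p = 6.96e-05), with overlapping groups. Eif5, which completes start codon recognition, rose by 1.46 (SE 0.26).

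Nuclear-encoded subunits of the respiratory chain were lower too. Of 14 tested 11 fell and none rose, beside 24.4% lower over all genes, with a median of -1.81. Cox6c, a subunit of cytochrome c oxidase, had 18.4 and 76.1 CPM at 625 nM, 28.7 and 0 at 2500 nM and 0 and 0 at 10000 nM, against 46 to 226 CPM (median 130.4) (log2 fold change -3.42, SE 0.77, adjusted p = 0.000178). It was undetected in 3 treated libraries, so its fold rests on few counts. Atp5g3, of the ATP synthase ring, fell to 0 in 3 of 6 libraries (log2 fold change -2.62, SE 0.55), and 2500 nM replicate 1 kept 143 CPM. The proteasome list had 8 tested members, of which 3 fell and 1 rose, beside 24.4% and 18.9% over all genes. Psma7 and Psmb1, subunits of the core particle, fell by 2.86 and 2.32. The third to fall, Psma3, and the riser, Psmd8, lost their calls without single libraries, among them 625 nM replicate 2.

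Lysosomal and degradative genes, abundant in macrophages, were lowered less steeply. Of 29 tested cathepsins, hydrolases and lysosomal membrane proteins, 17 fell and none rose, with a median of -0.67. Over all genes 24.4% were lower and 18.9% higher. Cst3, an inhibitor of cysteine cathepsins, had 368 and 381 CPM at 625 nM, 401 and 576 at 2500 nM and 211 and 213 at 10000 nM, against 967 to 1841 CPM (median 1274) (log2 fold change -1.90, SE 0.20, adjusted p = 2.56e-13). Ctsb, cathepsin B, had 1140 and 1294 CPM at 625 nM, 1175 and 1206 at 2500 nM and 710.5 and 932 at 10000 nM, against 1874 to 2629 CPM (median 2145) (log2 fold change -0.97, SE 0.14, adjusted p = 2.99e-08). Every treated library lay below every control for both. Ctss fell by 1.17 (SE 0.18) and Lamp1 by 0.83 (SE 0.24), while Cd68 (0.18) and Gpnmb (-0.09) were not called. The ion pump that acidifies lysosomes, the vacuolar ATPase, had none of 7 tested subunits lower and 1 higher, Atp6v0a1 (1.3, SE 0.39). That call was lost without the 10000 nM replicate 1 or the 625 nM replicate 2 library.

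Cytoskeletal and S100 genes fell in part. In the actin list 13 of 29 tested members were lower and 3 higher, beside 24.4% and 18.9% over all genes. The list's median was -0.68. Tmsb4x, thymosin beta-4, which binds actin monomers, had 569.9 and 457 CPM at 625 nM, 717 and 877 at 2500 nM and 729.7 and 399.6 at 10000 nM, against 2310 to 3429 CPM (median 2862) (log2 fold change -2.12, SE 0.16, adjusted p = 5.81e-20). Actb, beta-actin, had 3548 and 4821 CPM at 625 nM, 3842 and 4276 at 2500 nM and 3533 and 3569 at 10000 nM, against 5344 to 8204 CPM (median 7546) (log2 fold change -0.85, SE 0.13, adjusted p = 4.54e-08). No treated library reached the control range for either gene. The higher members were Vim, which encodes the intermediate filament protein vimentin (0.94, SE 0.19), Tln1, talin (0.97, SE 0.23), and Cap1 (1.49, SE 0.43). The call of Tln1 was lost without 2500 nM replicate 2 and that of Cap1 without 625 nM replicate 1.

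In the S100, galectin and annexin list 8 of 13 tested members fell and none rose (median -1.04), beside 24.4% lower over all genes. S100a4, a calcium-binding protein of motile cells, had 184 and 76.1 CPM at 625 nM, 315 and 192 at 2500 nM and 269 and 79.9 at 10000 nM, against 1079 to 1740 CPM (median 1444). Its levels in all 6 libraries were far under the lowest control (log2 fold change -2.85, SE 0.25, adjusted p = 4.93e-17). S100a6 fell by 2.98 (SE 0.40), while none of 4 tested annexins was called. S100a8 and S100a9, the neutrophil markers of this list, were at 27.4 and 86 CPM at most.

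Genes of macrophage identity changed in both directions. Maf, a transcription factor of resident macrophages, had 36.8 and 25.4 CPM at 625 nM, 57.3 and 109.6 at 2500 nM and 76.8 and 53.3 at 10000 nM, against 249 to 621 CPM (median 397) in controls. All 6 libraries lay below all 12 controls (log2 fold change -2.73, SE 0.38, adjusted p = 6.09e-09). Among 12 tested macrophage transcription factors, 4 rose and 2 fell, beside 18.9% higher and 24.4% lower over all genes. Cebpb and Bhlhe40 rose by 1.82 (SE 0.37) and 2.40 (SE 0.54), and Klf13 fell along with Maf (-1.56, SE 0.48). The other risers, Pparg and Zeb2, were no longer called without the 10000 nM replicate 1 library, Pparg also without 2500 nM replicate 2 and Zeb2 without 2500 nM replicate 1. The median of that list was 0.22 and turned to -0.01 with scaling factors from all genes. Of 23 tested genes of macrophage receptors and lipid handling 4 rose, 6 fell and 13 were not called, with a median of -0.15 and shares close to those over all genes. The 4 risers were Lrp1, an endocytic receptor (0.48, SE 0.18), Abca1, a cholesterol exporter (0.77, SE 0.33), Fabp5, a fatty acid binding protein (1.01, SE 0.41), and Cxcr4, a chemokine receptor (0.93, SE 0.34). All 4 calls were lost with scaling factors from all genes, without 2500 nM replicate 1 and without 625 nM replicate 2. Those of Lrp1 and Abca1 were lost without any 1 of the 6 libraries, that of Fabp5 also without 10000 nM replicate 1 or 625 nM replicate 1, and that of Cxcr4 also without 10000 nM replicate 2. Leaving out single controls also ended the calls of Lrp1 (replicates 2, 8 and 10), Fabp5 (2, 3, 4 and 12) and Abca1 (3, 4, 5, 6, 8, 9, 11 and 12). Among the fallers were Ccr2, the receptor for Ccl2, and Tyrobp, a signalling adaptor (-1.38, SE 0.20). Ccr2 fell by 2.51 (SE 0.51). It had 0 and 25.4 CPM at 625 nM, 86 and 27.4 at 2500 nM and 57.6 and 79.9 at 10000 nM, against 64.3 to 389 CPM (median 228), so the groups overlapped at the edge. Outside that list Ms4a6c, a membrane protein of monocytes, fell by 3.13 (SE 0.47).

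Of 7 tested complement and Fc receptor genes 5 fell and 1 rose, beside 24.4% and 18.9% over all genes. Among those that fell were C1qc (-0.96, SE 0.25) and C1qb (-0.86, SE 0.28), chains of complement C1q. Fcer1g (-1.09, SE 0.33), the shared signalling chain of Fc receptors, fell too. The riser, Lyn, lost its call without any of the 10000 nM replicate 1, 2500 nM replicate 1, 2500 nM replicate 2 or 625 nM replicate 1 libraries, and without any of 8 controls. C1qb was no longer called without the 10000 nM replicate 2 or the 2500 nM replicate 1 library. B2m, the light chain of MHC class I, had 478 and 863 CPM at 625 nM, 401 and 493 at 2500 nM and 288 and 319.7 at 10000 nM, against 1029 to 1674 CPM (median 1345) (log2 fold change -1.56, SE 0.19, adjusted p = 1.31e-10), with no overlap. The class I heavy chains H2-D1 and H2-T23 fell by 0.80 and 1.21, whereas H2-K1 was not called (-0.44). With scaling factors from all genes H2-K1 was called lower too (-0.67).

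Redox genes went in both directions, with 3 of 9 tested higher and 5 lower, beside 18.9% and 24.4% over all genes. Ftl1, ferritin light chain, had 1728 and 1827 CPM at 625 nM, 2150 and 1891 at 2500 nM and 1536 and 1545 at 10000 nM, against 3410 to 6143 CPM (median 4348) (log2 fold change -1.29, SE 0.14, adjusted p = 1.96e-12). The groups stood apart. Prdx1, Gpx1 and Sod1, which remove peroxides or superoxide, fell by 1.17, 1.18 and 1.1. Nfe2l2, which encodes the antioxidant regulator NRF2, rose by 1.67 (SE 0.26), and Txnip, an inhibitor of thioredoxin whose mRNA follows glucose supply, by 1.28 (SE 0.23). None of 7 tested endoplasmic reticulum chaperones passed, with a median of 0.10 that turned to -0.14 with scaling factors from all genes. Hspa5, the usual sentinel of the unfolded protein response, was at 0.10 (adjusted p = 0.81).

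**Figure D4:**
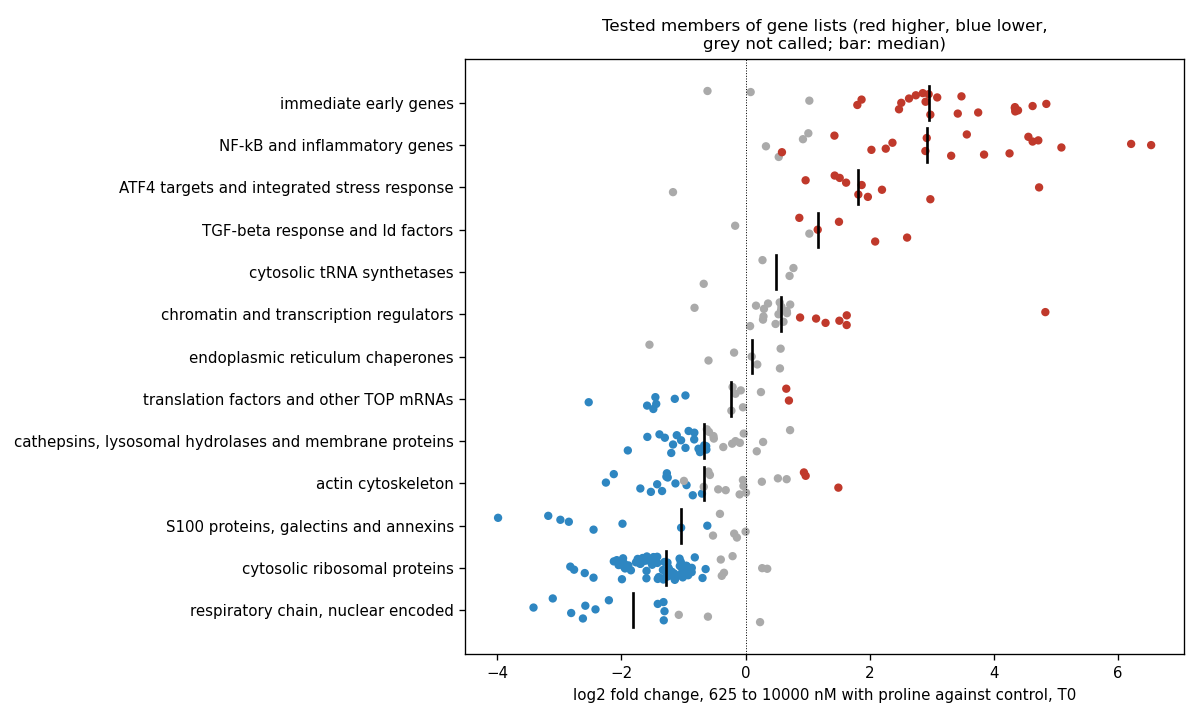
Log2 fold change of each tested member of 13 gene lists, 625 to 10000 nM halofuginone with proline against control at T0, red where called higher, blue where called lower, grey where not called, with a bar at the list's median. Medians run from 2.95 for immediate early genes to -1.81 for the respiratory chain, and the tRNA synthetases and endoplasmic reticulum chaperones hold no called member.

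Each dose was also set against the same 12 controls, so the comparisons share control libraries. At 625 nM 138 genes were higher (12.2%) and 116 lower (10.3%), 22.5% in all. At 2500 nM these were 137 (12.1%) and 111 (9.82%), 21.9% in all, and at 10000 nM 140 (12.4%) and 174 (15.4%), 27.8% in all. Cxcl2 rose by 6.77, 6.64 and 6.19 log2 at the 3 doses, Ifrd1 by 4.60, 5.11 and 4.82, and Atf4 by 1.72, 2.78 and 1.4. S100a4 changed by -3.28, -2.39 and -2.87, and Ctsb by -0.76, -0.78 and -1.37. With 2 libraries a dose these counts depend on each of them. Leaving out either 625 nM library gave 71 or 72 higher and 19 or 31 lower, either 2500 nM library 80 or 83 higher and 28 or 41 lower, and either 10000 nM library 69 or 95 higher and 67 or 94 lower.

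Between 10000 and 625 nM no gene of 1130 was called (0%) by edgeR or DESeq2, and 108 had an unadjusted p under 0.05 in edgeR. The smallest p belonged to Cd14, the LPS co-receptor, which had 313 and 254 CPM at 625 nM, 115 and 82.2 at 2500 nM and 19.2 and 0 at 10000 nM and 13 to 282 CPM (median 187) in controls. The 10000 nM libraries were thus the lowest and the 625 nM libraries the highest (log2 -4.45 for 10000 against 625 nM, SE 1.05, adjusted p = 0.0695). Cd14 is named here because of that value. Over the 3 doses together Cd14 was lower than in controls (log2 fold change -1.22, SE 0.48, adjusted p = 0.0334). Without the 10000 nM libraries the change was 0.04, and the call was also lost without 10000 nM replicate 2 (adjusted p = 0.119), 2500 nM replicate 2, 625 nM replicate 2 or control replicate 9. It was lost too with DESeq2 (adjusted p = 0.066) and after thinning to equal depth (adjusted p = 0.0874). Kdm6b had its highest levels in the 2500 nM libraries, as did Atf3, Jun, Fos and Egr1, with 2 libraries a dose and no test of that order.

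The next question was whether the change needs the high dose, since low doses with proline carry the same proline label. The 6 libraries at 2.4, 9.7 and 39 nM with proline served as the other side. In this comparison 188 of 1130 genes were higher at high dose (16.6%) and 213 lower (18.8%), 35.5% in all, with a median over all genes of -0.01. With scaling factors from all genes the split was 130 and 285, without a filter 93 and 232, and after thinning to equal depth 98 and 101 of 508 genes tested. Cxcl2 was 2861 ± 540.4 CPM (SD, n = 6) against 92.5 ± 138 (n = 6), a difference of 6.66 (SE 0.35) log2, where the low-dose libraries ran from 0 to 361 CPM. This difference averages the log2 levels of the doses, so low doses near 0 make it larger than the ratio of those mean CPM. Il1b, with 5 counts in all at the low doses, differed by 6.34 (SE 0.63) and Kdm6b, with 6, by 5.89 (SE 0.54). Ifrd1 differed by 4.96 (SE 0.38) and Ccl4 by 4.07 (SE 0.41). All 5 genes stood higher in each high-dose library than in any low-dose one.

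Among the genes lower than at low doses, Rpl9 differed by -2.94 (SE 0.54), S100a6 by -2.88 (SE 0.44), Rpl37a by -2.64 (SE 0.31), Ms4a6c by -2.59 (SE 0.53) and Rpl29 by -2.49 (SE 0.43). Of 23 immediate early genes 20 were higher (median 2.87), of 21 inflammatory genes 17 (median 2.73), and of 11 ATF4 list members 6 higher and 1 lower (median 1.2). Of 78 ribosomal protein genes 67 were lower (median -1.22), and of 29 lysosomal genes 13 (median -0.72). Over all genes 16.6% were higher and 18.8% lower, with a median of -0.01. Genes nearly absent at low doses could enter the test through the high-dose libraries. The counts and medians of lists that rose therefore do not measure how those lists behave as a whole.

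The dose nearest below, 156 nM with proline, was compared as well, a comparison chosen after the data had been seen, with 2 libraries at 156 nM. Of 1130 genes 13 were higher at the high doses (1.15%) and 6 lower (0.531%), 1.68% in all. Kdm6b was 642 ± 261 CPM (n = 6) against 125 and 55.9 CPM in the 156 nM libraries (log2 fold change 2.84, SE 0.56, adjusted p = 0.0017). Atf3 was 720.4 ± 229.7 against 249.5 and 97.7 (log2 fold change 2.08, SE 0.45, adjusted p = 0.00318). Neither overlapped the 156 nM libraries. Btg2, Dusp1 and Ccl4 differed by 2.58 (SE 0.64), 2.00 (SE 0.55) and 1.84 (SE 0.47). Cxcl2 and Atf4 were not called, at 0.80 (adjusted p = 0.125) and -0.34 (adjusted p = 0.808). Lower were Pdgfa (-2.51, SE 0.50), a growth factor chain, Ptp4a2 (-1.71, SE 0.35), a phosphatase, Arhgdia (-1.88, SE 0.50), Rpl35a (-1.30, SE 0.37) and Rps29 (-1.11, SE 0.31). Of the tested immediate early genes 6 of 23 were higher, with a median of 1.6, and of the inflammatory genes 2 of 21, with a median of 0.69. These counts rest on the 156 nM libraries. Leaving out 156 nM replicate 1 gave 5 higher and 0 lower, and leaving out replicate 2 gave 0 higher and 5 lower. With the 10000 nM replicate 1, 2500 nM replicate 1 or 625 nM replicate 2 library left out, 6 were higher and 3 lower.

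Proline was tested directly at the same 3 doses, with 6 libraries with it and 6 without. Of 1130 genes 2 were higher with proline (0.177%) and 0 lower by edgeR, where 111 had an unadjusted p under 0.05, and DESeq2 called none. A gene's difference had a 95% interval with a median half-width of 0.991 log2 over all tested genes. Over the 490 that differed from control it was 0.864. These intervals are not adjusted for the number of genes. A call at the adjusted threshold required a difference larger than the gene's half-width, so smaller differences were not detectable. Cxcl2 differed by -0.07 (95% interval -0.45 to 0.32), Nfkbia by -0.23 (95% interval -0.62 to 0.17), Atf3 by -0.33 (95% interval -0.85 to 0.19), Atf4 by -0.19 (95% interval -0.95 to 0.57) and Ctsb by 0.11 (95% interval -0.24 to 0.46). These intervals hold 0 and reach no further than 1 log2 in either direction. For Btg2 the interval was -1.52 to -0.17, around -0.85, and for Ddit3 -1.49 to 0.72, around -0.39. Btg2 did not pass the adjusted threshold. The summed tRNA synthetase level at these doses ran from 365 to 927 CPM without proline and from 457 to 1206 with it.

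The 2 called genes were Serpinb6a, a serine protease inhibitor, and Ncor1, a corepressor of nuclear receptors. Serpinb6a had 349 and 76.1 CPM at 625 nM, 115 and 137 at 2500 nM and 365 and 719 at 10000 nM with proline, and 0 and 48.7, 60.8 and 54.5 and 112 and 0 CPM at these doses without. Its control range was 108 to 381 CPM, with libraries with proline below, within and above it and 5 of 6 libraries without proline below it (log2 fold change 2.39, SE 0.53, adjusted p = 0.0229). Ncor1 had 165 and 304 CPM at 625 nM, 315 and 109.6 at 2500 nM and 230.4 and 186 at 10000 nM with proline, and 34.2 and 122, 0 and 0 and 187 and 103 CPM without, while controls ran from 89.1 to 372 (log2 fold change 2.84, SE 0.67, adjusted p = 0.032). The fold of Ncor1 averages the log2 levels of the doses, and without proline the 2500 nM dose was at 0. It is therefore larger than the ratio of the mean levels, 219 against 74.2 CPM. With and without proline overlapped for both genes. Neither call held throughout. Leaving out either 2500 nM library without proline, 625 nM replicate 1 without, 10000 nM replicate 2 without, or 2500 nM replicate 1 with proline gave no called gene. Leaving out 10000 nM replicate 2 with proline or 625 nM replicate 2 without gave 5, 625 nM replicate 2 with proline or 10000 nM replicate 1 without gave 3, and leaving out 10000 nM replicate 1, 2500 nM replicate 2 or 625 nM replicate 1 with proline gave 1.

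**Figure D5:**
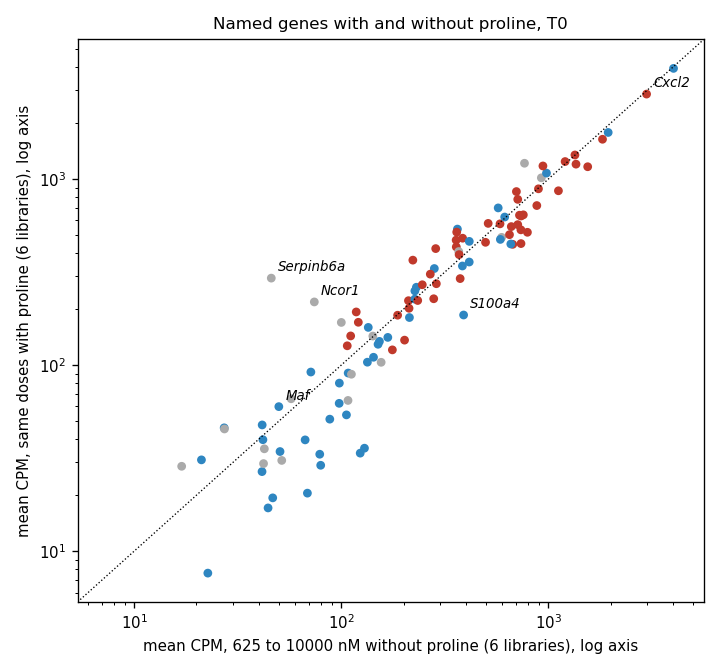
Mean CPM of 109 named genes at 625 to 10000 nM halofuginone without proline (x axis, 6 libraries) and with it (y axis, 6 libraries), both on log axes, red where higher and blue where lower than control with proline, grey where not called. Most genes lie near the dotted line of equal levels, with Serpinb6a and Ncor1 above it, at 46 without against 294 CPM with proline and 74.2 against 219.

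Last, the 6 libraries were set beside the T1 controls, 12 libraries of the next time label. The labels do not say whether these had LPS, although Cxcl10 and Ifit1, genes of the interferon response, were far higher there than in T0 controls (817 against 11.7 CPM for Cxcl10). In this fit of 30 libraries 196 of 1240 genes were higher with halofuginone and proline at T0 (15.8%) and 322 lower (26%), 41.8% in all. With scaling factors from all genes the split was 105 and 494, and without a filter 109 and 502. Time differs along with treatment here and cannot be told apart from it.

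Cxcl2 was at 2861 ± 540.4 CPM against 3321 ± 598 in T1 controls, and the difference was -0.09 (95% interval -0.38 to 0.20, adjusted p = 0.622). Il1b and Tnf were lower than in T1 controls, by 2.12 and 1.2 log2 (SE 0.18 and 0.22), and Nfkbia by 0.62 (SE 0.13). The named genes furthest below the T1 controls were Cxcl10, at 45.4 ± 50.1 CPM against 817 ± 79 (log2 fold change -4.4, SE 0.36, adjusted p = 1.93e-18), Ifit1, an antiviral protein (-4.33, SE 0.56), St3gal5, a sialyltransferase (-3.81, SE 0.67), Irg1, the itaconate-forming enzyme (-3.49, SE 0.40), and Plek, pleckstrin (-3.38, SE 0.35). Of 15 tested interferon-stimulated genes 12 were lower and none higher, with a median of -2.57, and of 33 inflammatory genes 21 were lower and 1 higher, with a median of -1.16. In the T0 fit 4 and 21 members of these lists could be tested. Genes could enter the present fit through the T1 controls alone, where they were high. These counts and medians therefore do not measure how the lists behave as a whole.

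Other genes stood higher than in T1 controls. Txnip was 639 ± 116 CPM against 20.3 ± 18.1 (log2 fold change 4.83, SE 0.34, adjusted p = 4.08e-20), without overlap. Ifrd1 was higher by 3.96 (SE 0.29), Rgs2, a regulator of G-protein signalling, by 3.01 (SE 0.22), Atf3 by 2.33 (SE 0.25) and Ccnl1 by 2.17 (SE 0.22). Of 7 tested ATF4 list members 5 were higher and 1 lower (median 1.2), of 20 immediate early genes 11 were higher and 1 lower (median 0.78), and Id3 and Id2 were higher by 2.16 and 1.77. Of 79 tested ribosomal protein genes 63 were lower and 1 higher (median -1.06). The shares over all genes of this fit were 15.8% higher and 26% lower.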

How the data were processed

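Libraries were 3′ digital gene expression libraries of macrophages. The deposited table holds whole-number counts per gene symbol, not normalized, from the authors. BWA and mm10 are named in the submitters' processing notes, without a version. How reads were counted (program, annotation, strand, molecular identifiers) is not given in the sources used here. Groups, doses and proline were taken from the labels. The members and gene lists were chosen with earlier results of these data known.

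Counts were tested with edgeR 4.0.16 in R 4.3.3 (TMM scaling, filterByExpr with a minimum count of 10, quasi-likelihood test, two-sided, Benjamini-Hochberg over all genes tested, threshold 0.05). All 40 T0 libraries entered 1 fit, and the comparison with T1 controls used 30 libraries. The SE of a log2 fold change was derived from the fold change and its F statistic, and 95% intervals from that SE. A log2 fold change over several doses averages the log2 levels of the doses. A dose at or near 0 weighs on it, and it need not match the ratio of mean CPM. CPM used TMM factors over all 120 libraries. Library measures were compared by exact two-sided permutation tests, adjusted over 3 measures. The procedure was tested on simulated data. None of 153 pairs of the 18 libraries was identical.

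Named genes were the 12 largest called increases and 12 largest called decreases at or above the median level with all 6 libraries on the same side of the control mean, for each list the 3 members lowest in adjusted p, 16 genes reported always, and the 5 largest each way in other comparisons. Other list members named as examples or exceptions were chosen after their values were seen. Alternatives were another scaling, no filter, DESeq2 1.42.0, a replicate block, removal of structural RNAs, thinning to equal depth, fitting only the groups compared, leaving out 10000 nM and leaving out each library. TMM factors from all genes and the comparison with 156 nM were added after the data had been seen. limma 3.58.1 was loaded by edgeR.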

Additional observations from a re-analysis of the deposited data

Results flagged for a closer look

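In each of 113 tested groups of values (the 6 libraries for a named gene), the highest or lowest library was compared with the rest by Dixon's criterion at the 95% level. It singled out 16, where chance flags about 1 in 20 groups. No explanation was tested for any of them. In the 2500 nM replicate 1 library, Pim1 was at 831 CPM (others 266 to 439), Ccnl1 at 1634 (others 584 to 809), Klf6 at 2236 (others 1094 to 1252), Aars at 86.0 (others 0 to 27.4) and Atp5g3 at 143 (others 0 to 36.8). In the 2500 nM replicate 2 library, Rn4.5s was at 1042 CPM (others 313 to 559).

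In the 625 nM replicate 1 library, Rpl29 was at 184 CPM (others 0 to 57.6), Txnip at 864.0 (others 548 to 639) and Dnajb6 at 809 (others 0 to 211). In the 625 nM replicate 2 library, Rpl14 was at 76.1 CPM (others 19.2 to 36.8), Irf9 at 228 (others 107 to 143), B2m at 863 (others 288 to 493), Rps29 at 584 (others 249.6 to 331) and Eprs at 0 (others 165 to 247). At 10000 nM, Skil was at 1119 CPM in replicate 2 (others 229 to 384) and Hsp90b1 at 1075 in replicate 1 (others 86.0 to 406).

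Ncor1 and Serpinb6a differed between high-dose libraries with and without proline, by 2.84 and 2.39 log2 in edgeR's test of that difference (adjusted p = 0.0320 and 0.0229, 6 libraries a side). DESeq2 called neither, and the libraries with and without proline overlapped.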

How the results depend on the processing

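Without the filter on low counts, high doses against control gave 420 genes lower, 625 nM gave 65 lower, 10000 nM gave 87 higher, high against low doses gave 93 higher, with against without proline gave 4 higher, high doses against 156 nM gave 1 higher and 3 lower, and high doses against T1 controls gave 109 higher and 502 lower. DESeq2 gave 65 lower at 2500 nM and 0 with against without proline, and median-of-ratios scaling gave 1 there. Thinned to equal depth, high doses against control gave 126 higher and 139 lower, 625 nM gave 56 lower, 2500 nM gave 84 higher and 55 lower, 10000 nM gave 83 lower, high against low doses gave 98 higher and 101 lower, with against without proline gave 0, 10000 against 625 nM gave 1 lower, 156 nM gave 6 higher and T1 controls gave 186 lower. TMM factors from all genes gave 174 lower at 2500 nM, 4 higher with against without proline, 7 higher and 13 lower against 156 nM, and 105 higher and 494 lower against T1 controls. Without 10000 nM, 1 was higher with against without proline and 1 lower against 156 nM. Fitting only the groups compared gave 1 lower with against without proline, 1 higher for 10000 against 625 nM and 3 lower against 156 nM. Fewer reads were tested after thinning, and the cause of the other shifts was not tested.

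Replicate numbers did not pair the libraries. Correlations of deviations between the 3 proline doses were -0.034, -0.011 and -0.033. With a replicate block high doses against control gave 103 higher and 157 lower, 625 nM gave 68 and 46, 2500 nM gave 87 and 50, 10000 nM gave 80 and 107, and 156 nM gave 2 lower. At T0 replicate numbers 3 to 12 occur only in controls, and the block uses up those libraries. The control level of that fit thus rested on control replicates 1 and 2.

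Leaving out 1 library at a time gave 173 to 214 higher and 258 to 306 lower for high doses against control, 71 to 139 and 19 to 132 at 625 nM, 80 to 142 and 28 to 119 at 2500 nM, 69 to 150 and 67 to 177 at 10000 nM, 151 to 176 and 187 to 238 against low doses, 0 to 5 higher and 0 lower with against without proline, 0 to 10 and 0 to 5 against 156 nM, and 144 to 224 and 296 to 382 against T1 controls. Dnajb6 ranged from -0.998 without 625 nM replicate 1 to 1.82, and Cd14 turned to 0.0388 without 10000 nM. Leaving out 625 nM replicate 1 left 1 library at that dose, in which Dnajb6 was at 0 CPM.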
